A study of Mus musculus with 13 samples.

Results

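Integrin and laminin genes were followed in cultured mouse prostate progenitor/stem cells treated with the hormonal form of vitamin D. The set was the 34 genes listed for the family, 24 for integrin subunits and 10 for laminin chains, each taken by its gene symbol in the platform annotation. Of these, 33 were measured (23 integrin and 10 laminin genes) among 18193 named genes, each read from its brightest probe set on average across the 13 arrays. Itga11 was not matched to a probe set by its symbol and was not analysed here. The cells came from wild-type mice labelled B1/6; 127/SVEV, aged 10 wk, and were cultured to passage 22, so they stand for long-cultured progenitors and not for prostate tissue. Cultures at 70% confluency received ethanol at 0.1% (vehicle) or 100 nM 1,25(OH)2D3, written 1,25D below, for 6 h or for 48 h with renewal each day. There were 3 arrays each of vehicle 6 h, 1,25D 6 h and vehicle 48 h, and 4 arrays of 1,25D 48 h. The labels do not say whether replicates came from separate cultures, so p-values measure only the spread between these arrays, whose number limits the precision.

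Integrins are receptors made of 1 alpha and 1 beta subunit that attach a cell to its matrix and signal from that contact. Laminins are trimers of an alpha, a beta and a gamma chain that form the basement membrane on which basal epithelial cells of the prostate rest. In such cells the integrin alpha6-beta4 holds laminin made of the chains Lama3, Lamb3 and a gamma chain at hemidesmosomes, and alpha6 and alpha2 are surface markers used to isolate basal and progenitor cells. The 1,25D hormone acts through the vitamin D receptor, a nuclear receptor that changes transcription.

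Signals are on the log2 scale, on which a difference of 1 is a doubling. The labelled cell type was set against marker genes by the percentile of their mean signal among all probe sets, a rough guide because probe sets differ in brightness and no detection calls were used. All 9 epithelial markers, basal and luminal or general, lay above the median. The basal Krt5 lay at percentile 99.2, Krt14 at 99.9, Krt15 at 69.4 and Trp63 at 86, and the luminal Krt8 and Krt18 both at 99.7. Of the other cell types, mean log2 signals of the marker lists ran over the 4 groups from 5.53 to 5.93 for stromal, from 5.27 to 5.91 for immune and from 4.77 to 5.18 for endothelial genes. Of 11 stromal markers 4 lay above the median, of 7 immune markers 3 and of 6 endothelial markers 1. The stromal Col1a1 lay at percentile 25.2 and Vim at 96.3, while the pan-leukocyte gene Ptprc lay at 15.9, the T-cell gene Cd3e at 67.1 and the endothelial Pecam1 and Cldn5 at 34.1 and 51.3. Vehicle 6 h replicate 1 and 1,25D 48 h replicate 4 stood apart from the other 11 arrays on the second principal component (22.97% of the variance). Their signals also had the narrowest interquartile ranges, 3.03 and 2.95, against 3.27 to 3.46 on the other 11. What part this had in the values of single genes was not tested. Among the 33 genes, vehicle 6 h replicate 1 was the lowest of its group for 16 and the highest for 14. The array of 1,25D 48 h replicate 4 was the lowest for 9 and the highest for 16, so counts are also given without both arrays. Markers of the epithelium itself moved with 1,25D: Krt19 rose at 6 h (0.80) and at 48 h (0.58), and Krt8 and Krt18 fell at 48 h (-0.43 and -0.34); their part in the results below was not tested. Of the stromal, immune, endothelial, platelet and nerve marker lists, 0 genes were called at 6 h, and Cd68 alone at 48 h. In bulk RNA, fewer cells of a type and less RNA per cell cannot be told apart.

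**Figure D1:**
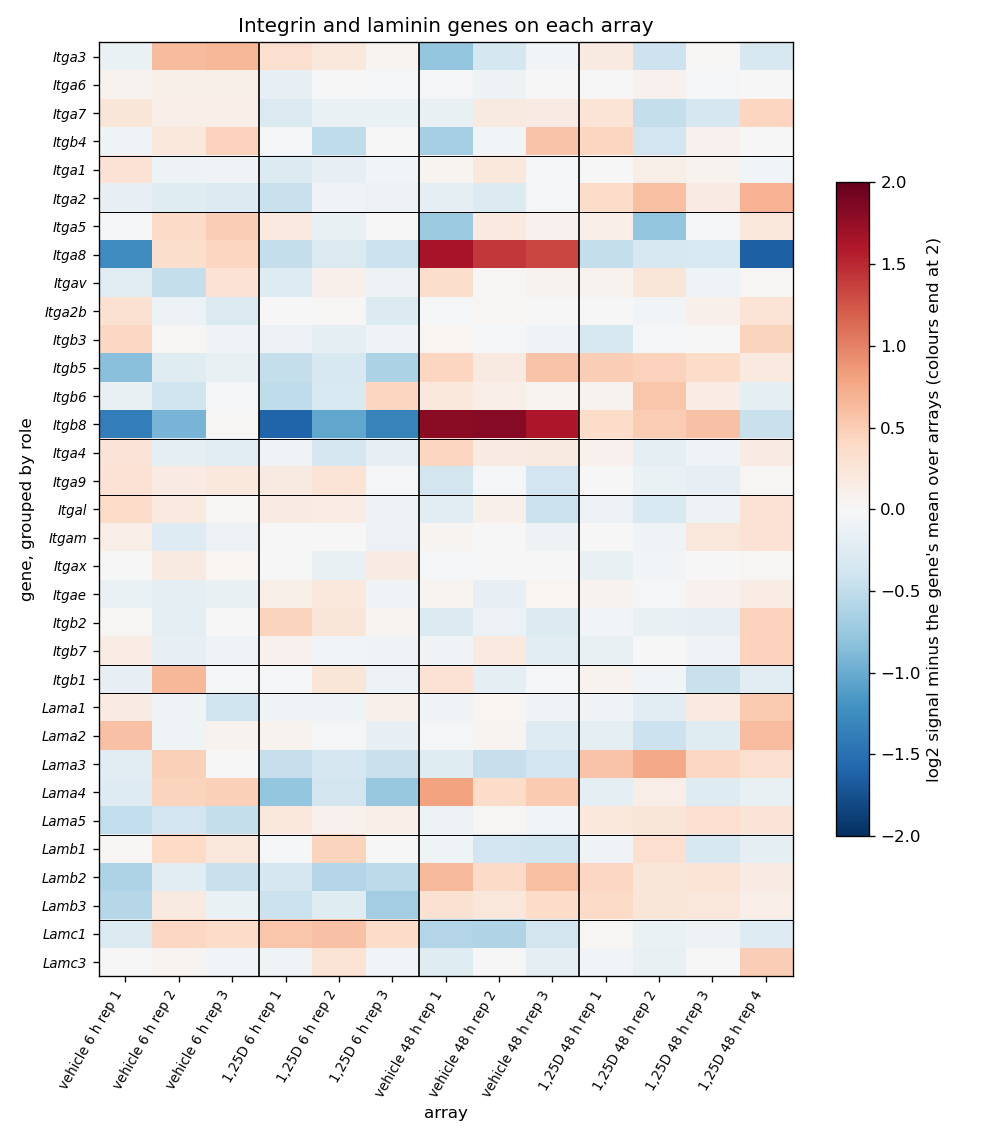
Log2 signal of 33 integrin and laminin genes on 13 arrays, shown as the difference from each gene's mean over all arrays; rows are grouped by role and black vertical lines separate the 4 groups. Itga8 and Itgb8 are high on all 3 vehicle 48 h arrays, whereas most rows vary little between groups.

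Few of these genes answered 1,25D, and different genes were called at 6 h and at 48 h. At 6 h, 1 gene rose and 0 fell of 33: Lama5, the laminin alpha5 chain. At 48 h, 1 rose, the laminin chain gene Lama3, and 2 fell, the integrin genes Itga8 and Itgb8. A gene was called at a Benjamini-Hochberg adjusted p under 0.05 in a limma fit over all probe sets, and rose, fell, higher and lower refer to such calls. Of all 18193 genes, 0.852% were called at 6 h (0.687% higher and 0.165% lower) and 2.39% at 48 h (1.43% higher and 0.951% lower). The share of the 33 genes called was 3.03% at 6 h and 9.09% at 48 h. Vehicle and treated arrays did not overlap for 7 of the 33 genes at 6 h and for 7 at 48 h. These shares are larger than the 10.2% and 12.6% of all genes, and the difference was not tested. The median log2 change over the 33 genes was -0.08 at 6 h and 0.06 at 48 h, against -0.020 and -0.0024 over all genes. When the 2 arrays that stand apart were left out, 1 rose and 2 fell at 6 h, where 1.36% of all genes were called, and 1 rose and 3 fell at 48 h, where 3.31% were.

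**Figure D2:**
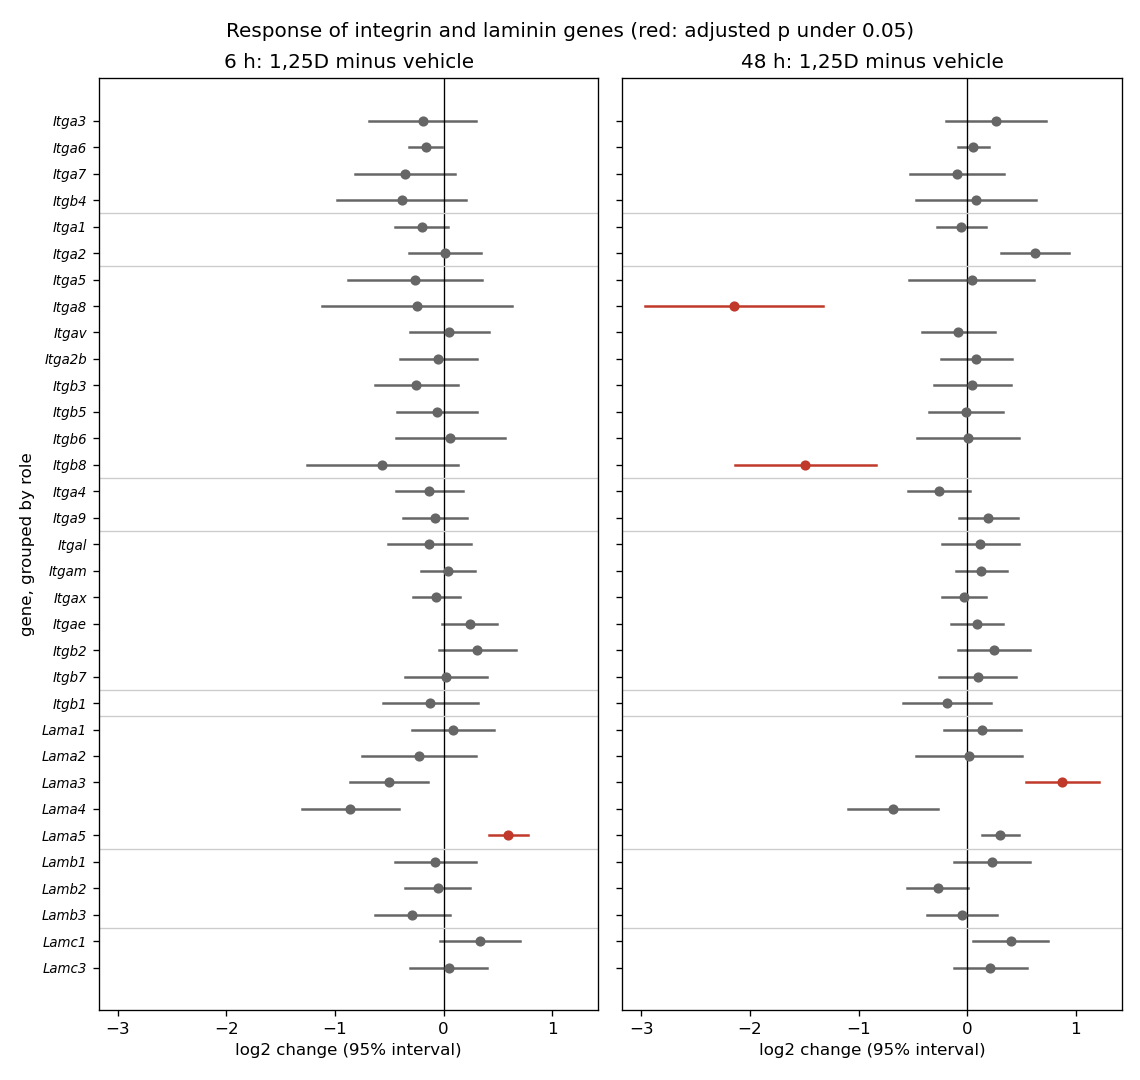
Log2 change, 1,25D minus vehicle, of each gene at 6 h (left) and 48 h (right) with the 95% interval of the limma fit; genes are grouped by role and red marks an adjusted p under 0.05. Itga8 (-2.15) and Itgb8 (-1.49) lie far to the left at 48 h, Lama3 (0.88) lies to the right at 48 h and Lama5 (0.60) at 6 h.

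Itga8 encodes the alpha8 subunit, which pairs with beta1 and binds matrix proteins that carry an RGD motif, nephronectin among them. At 48 h its log2 signal was 8.74, 8.50 and 8.43 on the vehicle arrays and 6.62, 6.77, 6.78 and 5.45 on the 1,25D arrays. Every treated array lay below every vehicle array, and the lowest was 1,25D replicate 4. The group means were 8.55 ± 0.165 (SD, n = 3) and 6.41 ± 0.642 (SD, n = 4), and Itga8 fell by 2.15 on the log2 scale, a signal 4.43-fold lower (SE 0.38, adjusted p = 0.00961). At 6 h the vehicle arrays read 5.85, 7.44 and 7.52 and the treated arrays 6.62, 6.79 and 6.66, so the groups overlapped through vehicle replicate 1 (change -0.24, adjusted p = 0.972). Leaving out both outlying arrays, Itga8 was called lower at 6 h as well (-0.79, adjusted p = 0.0127), and at 48 h the change was -1.83 (adjusted p = 1.24e-06). Without vehicle 48 h replicate 1 the 48 h change was -2.06 and was not called (adjusted p = 0.0621). Its other probe set, at percentile 30.3, also fell at 48 h (-1.29, adjusted p = 0.0385). The responses at 48 h and 6 h differed by -1.904 (adjusted p = 0.367), and by -1.04 without the 2 arrays (adjusted p = 0.0183).

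Itgb8 encodes the beta8 subunit, which pairs with alphav and is known for activating latent TGF-beta. At 48 h the vehicle arrays read 8.10, 8.12 and 7.92 and the treated arrays 6.67, 6.82, 6.89 and 5.86. All treated arrays were lower, with 1,25D replicate 4 again the lowest. Itgb8 fell by 1.49 on the log2 scale, a signal 2.81-fold lower (SE 0.30, adjusted p = 0.0246), from 8.05 ± 0.112 (SD, n = 3) to 6.56 ± 0.473 (SD, n = 4). At 6 h the signals were 4.93, 5.38 and 6.32 in vehicle and 4.71, 5.26 and 4.97 in treated cells, which overlapped (-0.56, adjusted p = 0.954). The 48 h call was lost without any 1 of the vehicle 48 h arrays or without replicate 1 of 1,25D 48 h, with changes of -1.45 to -1.55 (adjusted p up to 0.123). With both outlying arrays left out the change was -1.26 (adjusted p = 0.0045). By a two-sided exact permutation test Itga8, Itgb8 and Lama3 each gave p = 0.0571 at 48 h. This is the smallest value that the test used allows for 4 against 3 arrays, and any gene without overlap of the groups reaches it.

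**Figure D3:**
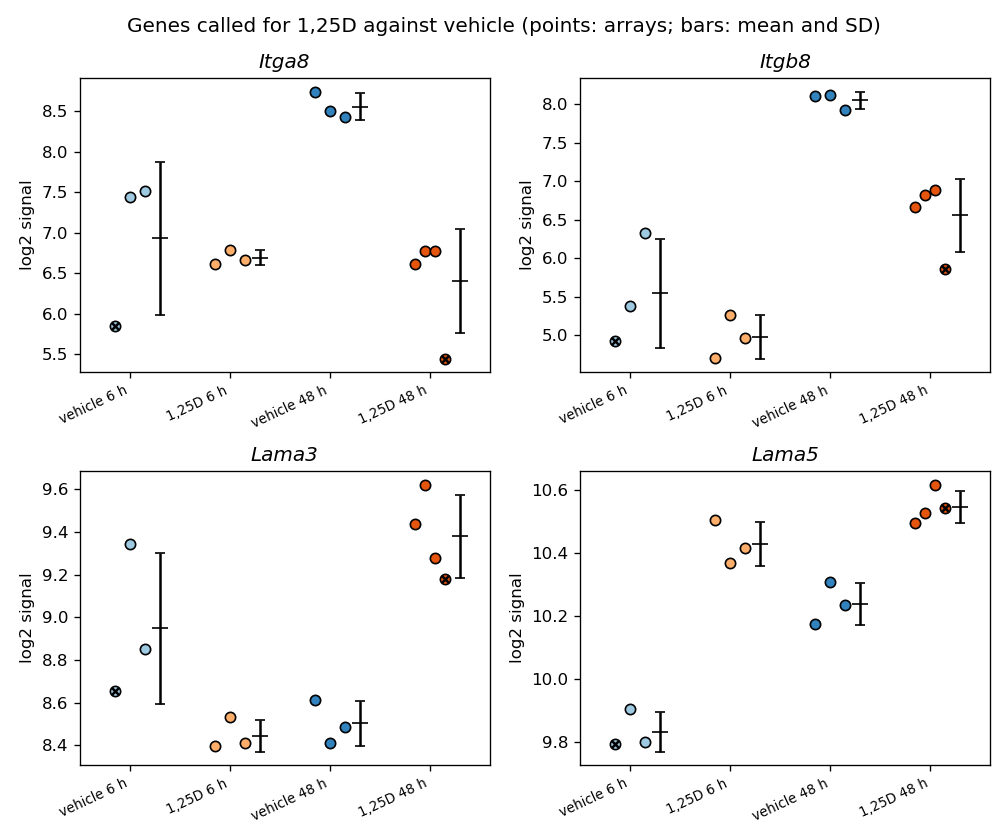
Log2 signal of Itga8, Itgb8, Lama3 and Lama5 on each array (points) in the 4 groups, with the group mean and SD beside them; crosses mark vehicle 6 h replicate 1 and 1,25D 48 h replicate 4. The treated and vehicle arrays do not overlap at 48 h for Itga8 and Itgb8, and do not overlap at either time for Lama3 and Lama5. For Lama3 the treated arrays lie below the vehicle arrays at 6 h and above them at 48 h.

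The remaining RGD-binding integrin genes were not called at 6 h or 48 h. Itgav, the alphav subunit that serves beta1, beta3, beta5, beta6 and beta8, had a log2 difference of 0.05 at 6 h and of -0.08 at 48 h (95% interval -0.42 to 0.26). Itga5, the fibronectin receptor subunit, had a log2 difference of -0.26 and 0.04, and Itga2b, the platelet subunit, of -0.05 and 0.08. The differences were -0.25 and 0.05 for Itgb3, -0.06 and -0.01 for Itgb5, and 0.06 and 0.0050 for Itgb6, all beta partners of alphav. Of the 8 RGD-binding genes, 0 rose and 2 fell at 48 h, the Itga8 and Itgb8 already described, and the median change was -0.0028. The share called was 25%, against 2.39% of all genes, and the difference was not tested.

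None of the 4 laminin-binding integrin genes was called for 1,25D at 6 h or 48 h by limma (1 and 0 at an unadjusted p under 0.05). Itga6, the alpha6 subunit of hemidesmosomes, read 11.44, 11.49 and 11.50 in vehicle and 11.21, 11.38 and 11.35 in treated cells at 6 h. The groups did not overlap, and the difference was not called (-0.16, SE 0.0701, adjusted p = 0.78). At 48 h it had a log2 difference of 0.06 (95% interval -0.083 to 0.20). Itgb4, the beta4 partner, had a log2 difference of -0.39 at 6 h and 0.08 at 48 h, with a wide interval at 48 h of -0.47 to 0.64. Itga3, the other main laminin receptor subunit of basal cells, had a log2 difference of -0.19 and 0.27, and Itga7, best known from muscle, of -0.35 and -0.09. The 6 h differences depended on the probe set: another of Itga3, at percentile 83, gave 0.49 (adjusted p = 0.877), and the other of Itga6, at percentile 97.2, gave -0.51 (adjusted p = 0.544). Itgb1, the beta subunit most alpha subunits share, had a log2 difference of -0.12 at 6 h and -0.19 at 48 h (95% interval -0.59 to 0.22). Its next probe set, at percentile 94.7, had the opposite sign at 6 h, 0.33 with no overlap of the arrays (adjusted p = 0.759), and -0.24 at 48 h.

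Of the collagen receptors, Itga2, the alpha2 subunit that pairs with beta1, came closest to a call at 48 h. Its vehicle arrays read 4.97, 4.89 and 5.13 and its treated arrays 5.53, 5.77, 5.32 and 5.86. Every treated array was higher, and the change of 0.62 (SE 0.14) missed the threshold (adjusted p = 0.0535). It was called under some other settings, among them leaving out the dimmest 40% of probe sets (adjusted p = 0.0318). Itga2 lay at percentile 41.3 of mean signal, close to that cut. Its group mean was 5.62 in 1,25D 48 h, against 4.94 to 4.99 in the other groups. The group under test thus raised the mean signal, and the call with dim probe sets left out is no separate evidence. Over all alternatives the adjusted p of Itga2 ran from 0.0291 to 0.263. At 6 h Itga2 had a log2 difference of 0.015. Itga1, the other collagen receptor subunit measured, had a log2 difference of -0.20 and -0.05.

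Itga4 and Itga9, whose products bind fibronectin or tenascin and cell-surface ligands, had a log2 difference of -0.13 and -0.08 at 6 h and of -0.26 and 0.20 at 48 h. The 6 leukocyte-type genes Itgal, Itgam, Itgax, Itgae, Itgb2 and Itgb7 held 0 calls at either time, and limma gave 0 of them an unadjusted p under 0.05. Their changes ran from -0.13 to 0.31 at 6 h and from -0.03 to 0.25 at 48 h. Among 7 measured immune markers 1 rose at 48 h, Cd68, a lysosomal glycoprotein of macrophages (1.23, adjusted p = 0.000846). Ptprc, which is found on all leukocytes, had a log2 difference of -0.11 there (adjusted p = 1), and what part immune cells had in these values was not tested.

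Lama3, the alpha3 chain of hemidesmosomal laminin, was the laminin gene with the largest change at 48 h. The vehicle arrays read 8.61, 8.41 and 8.49 and the treated arrays 9.44, 9.62, 9.28 and 9.18, so all treated arrays were higher. Lama3 rose by 0.88 (SE 0.16, adjusted p = 0.0109), 1.84-fold, from 8.503 ± 0.104 (SD, n = 3) to 9.38 ± 0.194 (SD, n = 4). At 6 h the order was the opposite: vehicle arrays read 8.65, 9.34 and 8.85 and treated arrays 8.39, 8.53 and 8.41, without overlap (-0.504, SE 0.17, adjusted p = 0.473). The 6 h change did not pass the test, but the responses at 48 h and 6 h differed by 1.38 (SE 0.23, adjusted p = 0.0183), higher at 48 h. Lama3 was the 1 gene of 33 called for this difference, with 0 lower, where 0.632% of all genes were called (0.346% higher and 0.286% lower).

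The Lama3 values rest on 1 probe set, of a kind that can match several transcripts of a gene. Its other probe set, at percentile 33.6, had a log2 difference of 0.18 at 48 h (adjusted p = 1) and gave a difference between responses of 0.22 (adjusted p = 0.985). The 48 h call was also lost without vehicle 48 h replicate 2 (adjusted p = 0.0736) or 3 (adjusted p = 0.0587). For the difference, the call was lost when 1 array was left out in 5 of 13 cases: replicates 1 and 3 of 1,25D 6 h, replicates 2 and 3 of vehicle 48 h, and replicate 1 of 1,25D 48 h, with a highest adjusted p of 0.0756. Without the 2 arrays that stand apart the 48 h change was 0.94 (adjusted p = 0.00231) and the difference 1.59 (adjusted p = 0.00274).

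**Figure D4:**
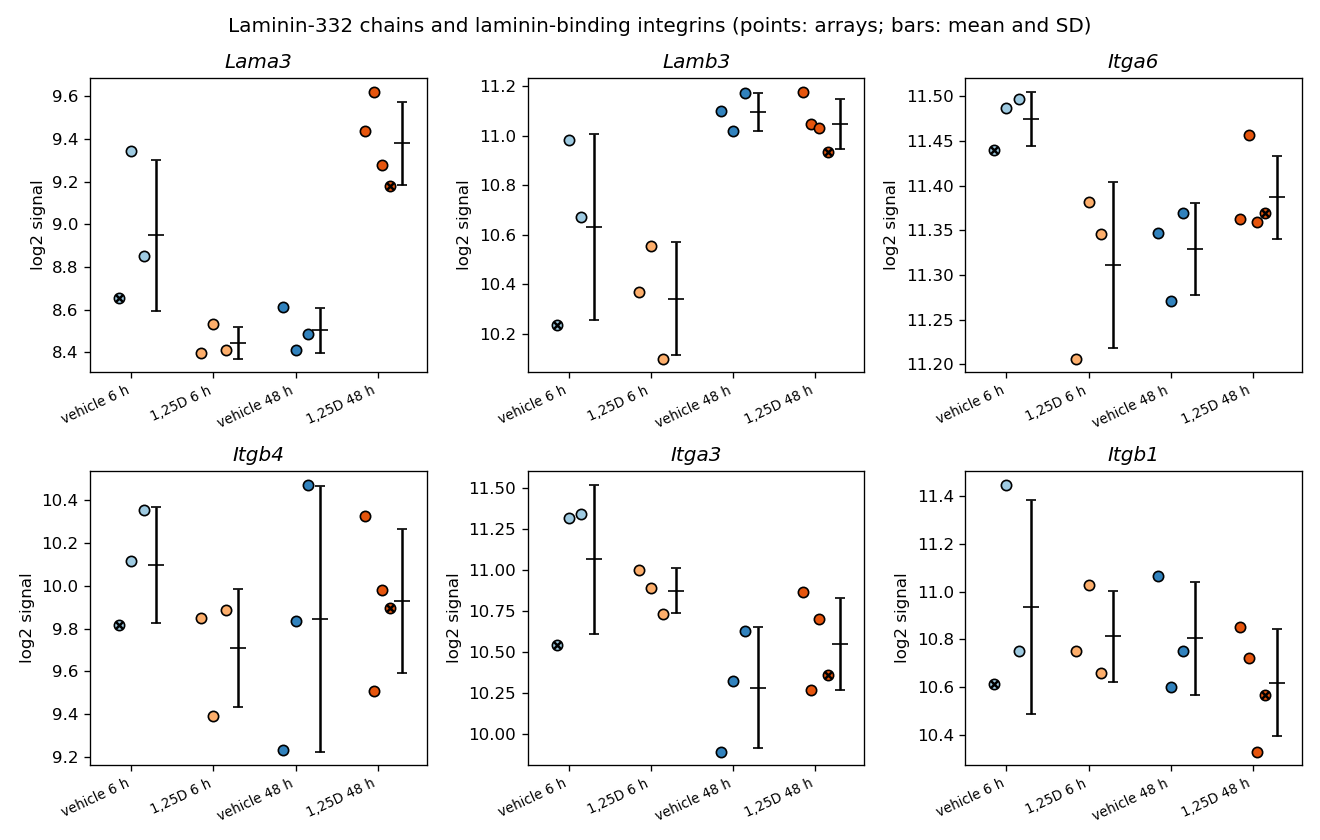
Log2 signal of Lama3 and Lamb3, chains of hemidesmosomal laminin, and of the laminin-binding integrin genes Itga6, Itgb4, Itga3 and Itgb1 on each array (points), with group mean and SD; crosses mark vehicle 6 h replicate 1 and 1,25D 48 h replicate 4, and each panel has its own scale. Only Lama3 of these 6 has a called change with 1,25D, at 48 h.

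Lama5 encodes the alpha5 chain, found in most adult epithelial basement membranes. At 6 h it read 9.79, 9.90 and 9.80 in vehicle and 10.51, 10.37 and 10.41 in treated cells, with all treated arrays higher. It rose by 0.60 (SE 0.0845, adjusted p = 0.0027), 1.51-fold, from 9.83 ± 0.0625 (SD, n = 3) to 10.43 ± 0.0705 (SD, n = 3). At 48 h the treated arrays were higher again, at 10.49, 10.53, 10.62 and 10.54 against 10.17, 10.31 and 10.24, but the change of 0.31 did not pass (SE 0.0790, adjusted p = 0.101). The responses differed by -0.29 (adjusted p = 0.745). Fitted on the 6 h groups alone, or read from its next probe set (0.41), Lama5 was not called at 6 h (adjusted p = 0.146 and 0.524). With both outlying arrays left out the 6 h change was 0.58 (adjusted p = 0.0156). By a two-sided exact permutation test Lama5 gave p = 0.1 at 6 h. That is the smallest value that 3 against 3 arrays allow, and any gene without overlap of the groups reaches it.

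Lama4, the alpha4 chain of vascular and muscle basement membranes, was lower on every treated array at both times without passing the test. At 6 h it read 6.84, 7.54 and 7.58 in vehicle and 6.32, 6.72 and 6.34 in treated cells (-0.86, SE 0.21, adjusted p = 0.124). At 48 h it read 7.90, 7.46 and 7.62 against 6.89, 7.23, 6.83 and 6.95 (-0.68, SE 0.19, adjusted p = 0.162). It was called lower without the 2 arrays that stand apart, at 6 h (-1.10, adjusted p = 0.00791) and at 48 h (-0.67, adjusted p = 0.0473). Leaving out vehicle 6 h replicate 1 alone gave the same calls (adjusted p = 0.0133 and 0.0447). Its other probe set had a log2 difference of -0.29 and -0.05 and was called at neither time.

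The other laminin chains did not pass the test for 1,25D. Lama1, an early embryonic alpha chain, had a log2 difference of 0.08 at 6 h and 0.14 at 48 h, and Lama2, the main muscle alpha chain, of -0.23 and 0.02. Lamb3, the beta3 partner of Lama3, had a log2 difference of -0.29 at 6 h and of -0.05 at 48 h (95% interval -0.37 to 0.27). Lamb1 and Lamb2, the beta chains of the broadly expressed laminins, had a log2 difference of -0.08 and -0.05 at 6 h and of 0.23 and -0.27 at 48 h. Lamc1, the gamma1 chain, read 7.89, 7.87 and 8.09 in vehicle and 8.49, 8.33, 8.37 and 8.22 in treated cells at 48 h, with no overlap (0.40, SE 0.16, adjusted p = 0.525). Lamc3 had a log2 difference of 0.05 and 0.21.

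Promoter sequence is shown for Itga8, Itgb8 and Lama5, which were called for 1,25D, from the RefSeq promoter table, and not for Lama3, to show the DNA next to the start sites. Each run is the 250 bases before the annotated start, 5′ to 3′ on the gene's strand, in GRCm38.p6. Capitals mark a half-site of a vitamin D response element, searched on both strands as AGGTCA, as its variant AGTTCA, as the form GGGTCA and as the form GGTTCA. A full element was searched as 2 such half-sites on 1 strand, in the same orientation and 3 bases apart. Itga8 lies on the minus strand at chr2:12301945-12302194, Itgb8 on the minus strand at chr12:119238277-119238526 and Lama5 on the minus strand at chr2:180225860-180226109.
Itga8: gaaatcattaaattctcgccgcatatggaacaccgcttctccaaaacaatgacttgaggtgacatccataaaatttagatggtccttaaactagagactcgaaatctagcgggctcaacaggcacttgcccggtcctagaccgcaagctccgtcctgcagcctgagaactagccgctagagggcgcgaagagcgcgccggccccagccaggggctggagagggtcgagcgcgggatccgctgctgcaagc
Itgb8: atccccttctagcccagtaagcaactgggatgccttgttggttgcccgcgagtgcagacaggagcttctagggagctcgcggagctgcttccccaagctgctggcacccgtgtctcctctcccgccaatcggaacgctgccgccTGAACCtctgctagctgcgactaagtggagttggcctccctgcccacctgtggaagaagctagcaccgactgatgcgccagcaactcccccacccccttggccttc
Lama5: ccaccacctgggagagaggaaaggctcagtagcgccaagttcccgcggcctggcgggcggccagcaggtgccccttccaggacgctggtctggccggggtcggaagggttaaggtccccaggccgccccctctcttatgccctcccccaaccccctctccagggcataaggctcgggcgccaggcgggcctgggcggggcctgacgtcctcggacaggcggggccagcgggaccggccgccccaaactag
Itgb8 held 1 half-site, which began 106 bases before the start, and Itga8 and Lama5 held 0. No full element was found in these 3 windows. Of 32851 promoters in the table, 38.6% held a half-site and 13 held a full element, and of 25 promoters of 22 of the 34 listed genes, 8 held a half-site and 0 a full element. GC content was 56.4% for Itga8, 62.4% for Itgb8 and 72.4% for Lama5, with a median of 52.4% over all promoters. A match is a description of these letters and no evidence of binding.

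Partners of integrins and laminins were counted in 5 lists. Of 6 measured hemidesmosome genes, 0 rose and 0 fell at 6 h and at 48 h by limma (3 and 1 at an unadjusted p under 0.05, medians -0.20 and -0.0054). Plec, the plectin that links beta4 to keratin, had a log2 difference of -0.34 and 0.09, Col17a1 of -0.05 and 0.19, and Cd151, a tetraspanin partner of laminin-binding integrins, of -0.06 and -0.16. Dst, the dystonin of the hemidesmosome plaque, had the largest differences of the list, -0.57 at 6 h and -0.54 at 48 h, with no overlap of the arrays at either time and no call (adjusted p = 0.254 and 0.152). With both outlying arrays left out Plec was called lower at 6 h (-0.52, adjusted p = 0.0439). Of 23 measured focal adhesion genes, 0 were called at 6 h by limma (3 at an unadjusted p under 0.05). At 48 h 0 rose and 1 fell (4 at an unadjusted p under 0.05). This was 4.35% of the list, against 2.39% of all genes, and the difference was not tested. The gene that fell was Tln2, a talin that couples beta subunits to actin (-0.99, SE 0.16, adjusted p = 0.00412). Tln1, the broadly expressed talin, had a log2 difference of -0.21 and -0.10 and the integrin-linked kinase gene Ilk of 0.21 and -0.22. The median change of this list was -0.07 at 6 h and -0.09 at 48 h.

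Of 15 measured ligands of integrins other than laminins, 1 rose and 1 fell at 6 h (13.3%, against 0.852% of all genes), and 1 rose and 2 fell at 48 h (20%, against 2.39%). The difference between these shares was not tested. Ccn2, a matricellular ligand also known as connective tissue growth factor, rose by 0.81 at 6 h (adjusted p = 0.000179) and by 1.59 at 48 h (adjusted p = 5.68e-08). Its relative Ccn1 fell by 0.502 at 6 h (adjusted p = 0.0155) and had a log2 difference of -0.07 at 48 h. At 48 h the falls were in Icam1, the ligand of beta2 integrins (-1.08, adjusted p = 0.000553), and Mfge8, a bridging protein with an RGD motif (-0.71, adjusted p = 0.00443). Npnt, the nephronectin that Itga8 binds, had a log2 difference of 0.71 at 6 h and 0.83 at 48 h without passing (adjusted p = 0.579 and 0.175). With both outlying arrays left out, Npnt was called higher by limma at 6 h (0.71, adjusted p = 0.0359) and at 48 h (1.11, adjusted p = 0.000241). Fibronectin Fn1 had a log2 difference of -0.20 and -0.02. Of 6 laminin receptors that are no integrins, 0 were called at 6 h by limma (1 at an unadjusted p under 0.05) and 1 rose at 48 h, the syndecan Sdc1 (0.31, adjusted p = 0.0461). Of 14 other basement membrane genes 0 were called at 6 h or 48 h by limma, with 1 and 3 at an unadjusted p under 0.05. Without the 2 arrays that stand apart, 2 ligands rose and 1 fell at 6 h, 2 rose and 2 fell at 48 h, and 0 non-integrin laminin receptors were called at 48 h.

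Time in culture moved more of the 33 genes than 1,25D did. From 6 h to 48 h in vehicle, 5 rose and 3 fell (24.2%), where 18.6% of all genes were called (9.84% higher and 8.75% lower). In 1,25D-treated cultures 6 rose and 1 fell (21.2%), where 23.4% of all genes were called (10.9% higher and 12.5% lower). These shares were near those of all genes. Hours in culture and the day on which cultures were harvested cannot be told apart, and the comparisons share arrays with those of 1,25D against vehicle.

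Itgb8 had the largest change with time. It rose by 2.51 in vehicle (SE 0.32, adjusted p = 0.000135), 5.68-fold, and by 1.58 in treated cells (SE 0.30, adjusted p = 0.00206), 2.99-fold. These changes differed by -0.92, the same quantity as the difference between the responses to 1,25D, and it was not called (adjusted p = 0.909). Itga8 rose by 1.62 in vehicle (adjusted p = 0.0167), while in treated cells it had a log2 difference of -0.28 (adjusted p = 0.734). Its changes in the 2 arms differed by -1.904, which was not called (adjusted p = 0.367). Itgb5, a vitronectin receptor subunit, rose by 0.803 in vehicle and by 0.85 in treated cells (adjusted p = 0.00594 and 0.00177), from group means of 9.35 and 9.29 to 10.16 and 10.15. The Itga8 call with time in vehicle was lost without vehicle 48 h replicate 1 (adjusted p = 0.0668), and the Itgb5 call in vehicle with its next probe set (0.56, adjusted p = 0.114).

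Among laminins, Lamb2 rose in both arms. Its group means went from 7.63 to 8.60 in vehicle (0.97, adjusted p = 0.000323) and from 7.57 to 8.33 in treated cells (0.76, adjusted p = 0.000968). Lamc1 fell in both, from 8.64 to 7.95 in vehicle and from 8.97 to 8.35 in treated cells, by 0.69 (adjusted p = 0.016) and 0.62 (adjusted p = 0.0154). The vehicle call of Lamc1 was lost without vehicle 6 h replicate 2 or 3 or vehicle 48 h replicate 1 or 2, with a highest adjusted p of 0.0738. In treated cells it was lost without replicate 1 or replicate 2 of 1,25D 6 h, at most 0.0643 in adjusted p, and with the replicate number as a block (adjusted p = 0.053). Its next probe set had a log2 difference of -0.09 in vehicle and 0.06 in treated cells. Lama5 rose in vehicle (0.41, adjusted p = 0.0051), though not in a fit of the vehicle groups alone (adjusted p = 0.0659) or with its next probe set (0.17, adjusted p = 0.606). In treated cells Lama3 (0.93, adjusted p = 0.000805), Lamb3 (0.71, adjusted p = 0.00429) and the integrin gene Itga2 (0.67, adjusted p = 0.00482) rose with time. In vehicle the differences of these 3 were -0.45, 0.47 and 0.06 and did not pass (adjusted p = 0.12, 0.0814 and 0.919), and the Lama3 rise was not seen with its other probe set (0.11). The changes with time differed between the arms by 1.38 for Lama3, 0.24 for Lamb3 and 0.61 for Itga2. Of these only the Lama3 difference was called (adjusted p = 0.0183, 0.985 and 0.573), so a rise of Lamb3 or Itga2 under 1,25D alone is not shown.

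In vehicle Itga3 fell from a mean of 11.07 to 10.28, by 0.79 (adjusted p = 0.0377), and Itga9 fell from 5.84 to 5.35, by 0.48 (adjusted p = 0.032). In treated cells their differences were -0.33 and -0.21, and the arms differed by 0.46 and 0.28 without a call (adjusted p = 0.985 for both). The Itga3 call was lost in 8 of the 13 fits that left out 1 array (adjusted p up to 0.181): those without replicate 2 or 3 of vehicle 6 h, any array of 1,25D 6 h, replicate 1 or 2 of vehicle 48 h, and replicate 3 of 1,25D 48 h. Median centring, a fit with no intensity trend and a fit of the vehicle groups alone also ended it (adjusted p = 0.0549, 0.0512 and 0.111). The Itga9 call was lost without any 1 of vehicle 6 h replicates 1, 2 and 3 or vehicle 48 h replicates 1 and 3 (adjusted p up to 0.139). Its next probe set had a log2 difference of -0.09. Without the 2 arrays that stand apart 6 of the 33 genes rose and 5 fell in vehicle, where 23.9% of all genes were called, and 7 rose and 2 fell in treated cells, where 27.0% were.

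**Figure D5:**
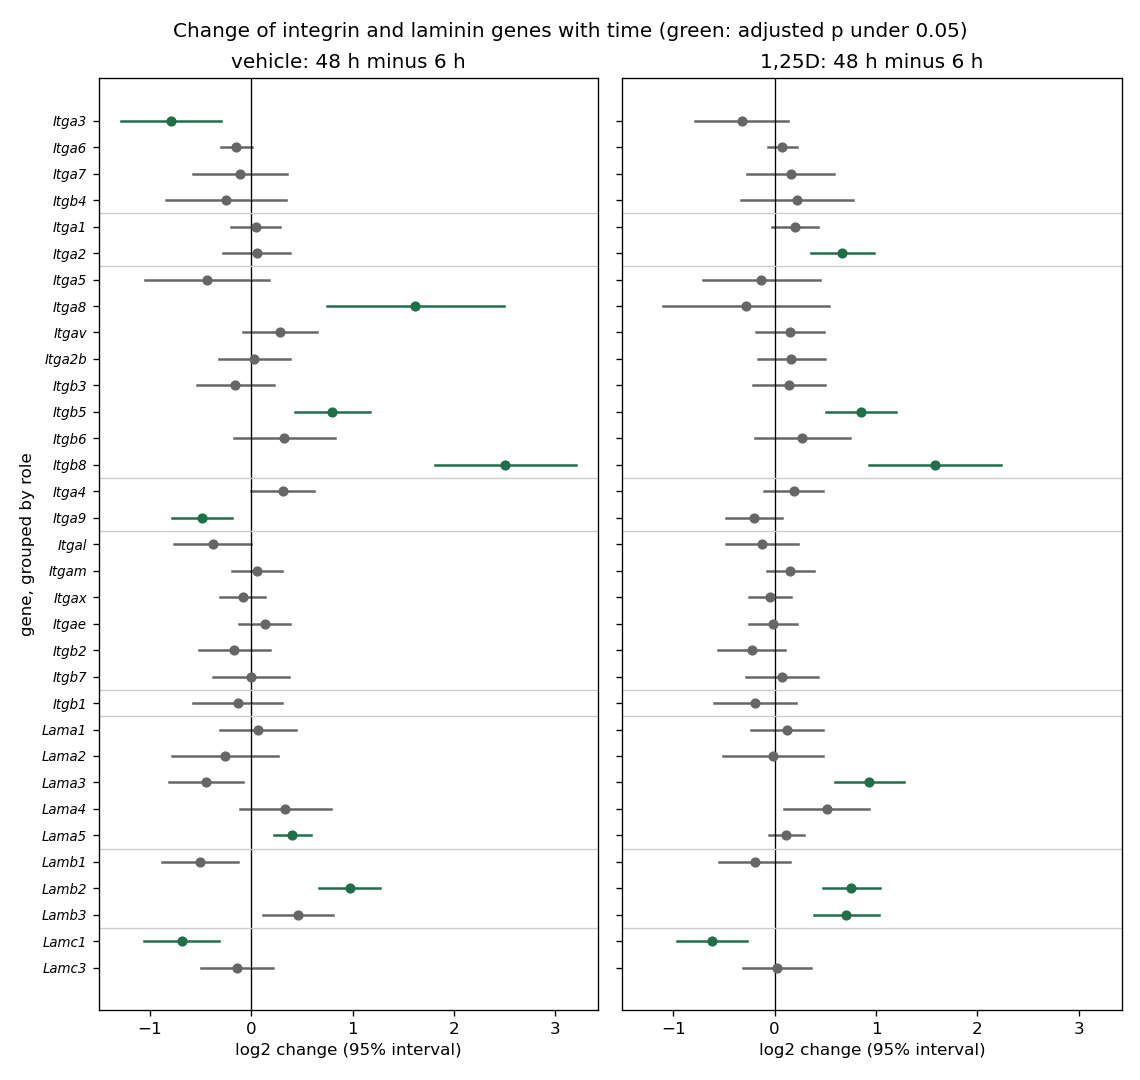
Log2 change from 6 h to 48 h of each gene in vehicle (left) and in 1,25D-treated cultures (right) with the 95% interval of the limma fit; genes are grouped by role and green marks an adjusted p under 0.05. Itgb8, Itgb5 and Lamb2 are called higher and Lamc1 lower in both panels, Itga8 is called in vehicle (1.62), and Lama3 in treated cells (0.93).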

How the data were processed

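RNA of 13 samples was hybridised to Affymetrix mouse arrays, 1 array for each sample (5 ug of total RNA labelled with biotin, per the labels' protocols). The authors' deposited values are log2 signals of 45101 probe sets, between about 3.05 and 14.45; the submitters' processing notes name MAS5 with no role. How background and array-to-array scale were handled is not given in the sources used here. The deposited log2 values were used as given. No detection calls entered the analysis, so presence of a transcript is not established; 11 of the 33 genes lay below the median of all probe sets.

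After 64 control sets were removed, 45037 probe sets were tested; 34945 had 1 gene symbol, 932 several and 9160 none in the platform annotation. Group means over all 13 arrays were fitted in limma 3.58.1 (R 4.3.3) with eBayes and an intensity trend, two-sided, with Benjamini-Hochberg adjustment over all 45037 probe sets. Levels of different probe sets were set side by side as percentiles of mean signal in the marker check. Mean log2 signals were used for the choice of probe set and for the marker lists. The fit was tested on simulated data. Exact permutation tests used scipy 1.17.1 (Python 3.11.15), and figures matplotlib 3.10.9. Promoter sequences are from the RefSeq table of GRCm38.p6; the array's build is not given in the sources used here.

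The genes, lists, naming rule and alternatives were chosen with earlier results of these data known. Values by array are given for genes called for 1,25D and, as partners of these by role, for Itga6 and Lamc1; Itga2 and Lama4 were singled out after their values were seen. Genes called for time alone are given by group means. Alternatives were other normalizations, an offset of 16, other variance models, leaving out the dimmest 40% of probe sets, fewer groups in the fit, array weights, the replicate number as a block, other probe sets and leaving out arrays.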

Additional observations from a re-analysis of the deposited data

Results flagged for a closer look

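Within the 4 arrays of 1,25D 48 h, 1 array lay far from the rest for 2 of 33 genes tested; chance marks about 1 group in 20. For Itga8, replicate 4 read 5.45 and the others 6.62 to 6.78, a gap of 0.879 of the group's range. For Itga6, replicate 2 read 11.46 and the others 11.36 to 11.37, a gap of 0.895 of a narrow range. Lama3 responded differently at 48 h and 6 h, by 1.38 on the log2 scale in limma's test of the difference itself (adjusted p = 0.0183). This call rests on 1 probe set and was lost with the other (0.22, adjusted p = 0.985). It was also lost in some fits that left out 1 array (adjusted p up to 0.0756). The 6 h change of Lama3 was not itself called (adjusted p = 0.473).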

How the results depend on the processing

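Of 33 genes, 1 was called at 6 h, 3 at 48 h, 1 for the difference between these responses, 8 for time in vehicle and 7 for time in 1,25D. At 6 h 2 were called after quantile normalization or with array weights, 3 without the 2 arrays that stand apart and 0 in a fit of those groups alone by limma (4 at an unadjusted p under 0.05 in the fit of all groups). At 48 h 7 were called with array weights. For the difference, 0 were called when multi-transcript probe sets were dropped or with the next probe set of each gene, and 2 without the 2 arrays. For time in vehicle, 4 were called in a fit of those groups alone and 5 with the next probe set. Leaving out 1 array at a time gave 1 to 2 calls at 6 h, 1 to 4 at 48 h, 0 to 1 for the difference, 4 to 9 in vehicle and 6 to 8 in 1,25D; at 48 h it was 1 without vehicle 48 h replicate 1, 2 or 3, and in vehicle 4 without vehicle 48 h replicate 1. With the replicate block the counts were 1, 3, 1, 9 and 6. Deviations of same-numbered arrays correlated by 0.069 to 0.28 at 6 h and by -0.53 to 0.39 at 48 h. Of 6 arrays, 5 at 6 h and 1 at 48 h correlated best with their own number. The replicate numbers were not taken as pairs in the main fit, and whether the 6 h arrays were paired is not known. The sign turned with the next probe set for Itga8 at 6 h (0.039) and for Lamc1 with time in 1,25D (0.064). Leaving out 1 array at a time moved the Itga8 change at 6 h between -0.79 and 0.046, above 0 without vehicle 6 h replicate 2 or 3. The causes were not tested. The other 27 changes recomputed kept their sign under every alternative run. Signal over background is unknown and limits what can be said of dim genes.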

Other observations

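Itgb6, whose product pairs with alphav in epithelium, had a second probe set, at percentile 60.1, that was called higher at 6 h (0.83, SE 0.17, adjusted p = 0.0472), while the first had a difference of 0.06. At 48 h the second had a difference of 0.12 (adjusted p = 1). This probe set was singled out after its values were seen, and which of the 2 better follows the transcript was not tested.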
